A study of Mus musculus with 6 samples.

Results

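Of the 35 genes of glucose transport, glycolysis and the low-oxygen response examined here, only Slc2a1 passed the test between Grhl3 knockout and wild-type mouse handpads, and it was 1.48-fold higher in the knockout. The 35 genes were chosen by name for their roles, with no threshold on measured values but with earlier results of these data known. They are 35 of 34945 gene symbols with a transcript in the deposited tables. The handpad is the paddle-shaped end of the forelimb of the embryo. The series asks how migration of the surface epithelium and a non-adhesive periderm, its outer cell layer, contribute to digits coming apart. The compared groups were 3 wild-type and 3 Grhl3 knockout samples of C57BL/6 embryos at stage E14.5, with no treatment named. Grhl3 is a transcription factor of the surface epithelium. The labels do not describe the knockout allele, and they do not say whether a sample is 1 embryo or a pool, so the p-values here speak only of sample-to-sample spread, some of which may be technical.

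Glucose enters cells through facilitative transporters, of which GLUT1, encoded by Slc2a1, and GLUT3, encoded by Slc2a3, serve many embryonic tissues. Glycolysis splits glucose to pyruvate in a preparatory stage that spends ATP and a pay-off stage that returns it, and lactate dehydrogenase turns pyruvate into lactate when it is not burned in mitochondria. When oxygen is low, prolyl hydroxylases no longer mark the HIF alpha proteins for destruction, and HIF then raises the transcription of transporters, glycolytic enzymes and genes such as Vegfa. Limb buds grow with few vessels in their cartilage cores, and HIF1A is known to be needed by growth plate cartilage.

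The libraries held 38052692 to 56037639 estimated counts. Counts are given as CPM, scaled to a common library size after TMM scaling, which evens out differences in composition. Levels are compared between genes only as TPM, which also corrects for transcript length. Grhl3 itself measured 14.3, 45.7 and 18.6 CPM in wild-type and 3.11, 2.86 and 2.95 CPM in knockout replicates 1 to 3, a log2 fold change of -3.14 (adjusted p = 0.0219, edgeR quasi-likelihood test). Over 16922 genes tested, 0.437% were called at a false discovery rate (FDR) under 0.05, 0.355% higher and 0.0827% lower in the knockout, and of the 35 genes 1 was called higher and 0 lower. With DESeq2, 1.77% of genes and the same 1 of the 35 were called. At an unadjusted p under 0.05 in edgeR stood 7.23% of all genes and 4 of the 35, and without wild-type replicate 1 these were 17.4% and 14, of which 12 were higher in the knockout. Wild-type replicate 1 stood apart, with more of its counts on ribosomal protein genes (8.9%, others 5.61% to 7.74%) and shorter transcripts behind its counts (mean 3148 bases, others 3347 to 3625). It also lacked Y-linked expression, like the knockout libraries (at most 5.34 CPM over 4 genes), whereas wild-type replicates 2 and 3 had 288 and 339 CPM.

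Slc2a1, which encodes the widely used transporter GLUT1 (chromosome 4, 119108711 to 119137983, plus strand, mm10), measured 139, 141 and 129 CPM in wild-type and 212, 193 and 199 CPM in knockout replicates 1 to 3. The groups did not overlap, and the lowest knockout library exceeded the highest wild-type library by more than either group's SD. The group means were 136 ± 6.19 and 201 ± 10.1 CPM (SD, n = 3). The log2 rise of Slc2a1 was 0.56 (SE 0.09, 95% interval 0.35 to 0.77, adjusted p = 0.0487, edgeR), which is 1.48-fold with an interval of 1.28 to 1.71. In the authors' deposited table it has a log2 fold change of 0.56 and an FDR of 0.000357. An exact two-sided permutation test on the 3 against 3 log2 CPM values gave p = 0.1, the smallest value this design allows. The call lay close to the threshold. With DESeq2 the adjusted p was 2.43e-06, and edgeR kept the call with no filter on low counts (0.0365) and without wild-type replicate 1 (0.0267). The call was lost with limma-voom (adjusted p = 0.0616). In edgeR it was lost without wild-type replicate 2 (0.119) or 3 (0.263) or knockout replicate 1 (0.278), 2 (0.124) or 3 (0.185), at log2 fold changes of 0.52 to 0.59. Of the edgeR calls made on simulated counts, 9.6% were false. On the TPM scale, wild-type libraries stood at 68.0, 106 and 98.6 and knockout libraries at 145, 121 and 119, again without overlap. The low TPM of wild-type replicate 1 lay in the coding transcripts: Slc2a1-202 had 4.79 TPM there and 34.1 to 55.6 TPM in the other libraries. Slc2a1-201, also coding, had 9.6 TPM there and 18.7 to 39.3 TPM elsewhere. Slc2a1-204, annotated as a target of nonsense-mediated decay, differed less, at 45.0 to 58.9 TPM over all libraries.

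Marker genes of cell types known to use GLUT1 were read in the same libraries. The 10 epithelial markers summed to 1374, 2249 and 1356 CPM in wild-type and 3474, 2556 and 3367 CPM in knockout libraries, with 1 marker (Cldn7) called higher by edgeR, 7 called by DESeq2, 1 by limma-voom, and 7 higher at an unadjusted p under 0.05 with edgeR. The 6 endothelial markers summed to 295 to 314 CPM in wild-type and 349 to 372 CPM in knockout libraries, with 0 called by edgeR, DESeq2 or limma-voom and 2 higher at an unadjusted p under 0.05. The 9 erythroid markers overlapped between groups, at 5192 to 8356 and 6179 to 10804 CPM, with 0 called by any of these tools and 2 higher at an unadjusted p under 0.05. None of these markers was at 0 in any library. The epithelial sums were made up largely of keratins: Krt5, Krt14 and Krt15 had 638, 281 and 211 CPM in wild-type replicate 1. Esrp1, Trp63 and Grhl2 overlapped between groups, at log2 fold changes of -0.001, 0.18 and 0.36, and so did Krt15, at 0.73. The other 6 epithelial markers (Epcam, Cdh1, Krt5, Krt14, Cldn4 and Cldn7) did not overlap, at 0.75 to 1.27. GLUT1 is known from basal keratinocytes, from red blood cell precursors and from some endothelium. In tissue samples, fewer cells of a type and less RNA per cell cannot be told apart, and the part of these cell types in the Slc2a1 result was not tested.

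Slc2a3, encoding the high-affinity transporter GLUT3 (chromosome 6, 122727809 to 122801640, minus strand, mm10), measured 79.2, 179 and 115 CPM in wild-type and 142, 118 and 108 CPM in knockout replicates 1 to 3. Wild-type replicates held both the lowest and the highest value, so the groups overlapped fully. Its log2 fold change was -0.02 (SE 0.26, 95% interval -0.61 to 0.57, adjusted p = 1, edgeR), an interval that reaches from 0.655-fold to 1.49-fold. Without wild-type replicate 2 the value was 0.34 (adjusted p = 0.782), and without wild-type replicate 1 it was -0.26 (0.499). The 2 transporters thus differed in replicate spread: the wild-type SD was 6.19 CPM for Slc2a1 and 50.3 CPM for Slc2a3. Per length, Slc2a1 totalled 68.0 to 145 TPM and Slc2a3 19.9 to 63.1 TPM, with Slc2a1 above Slc2a3 in each of the 6 libraries. Over protein-coding transcripts alone, Slc2a1 had 15.9, 60.8 and 52.8 TPM in wild-type and 94.96, 62.3 and 63.3 TPM in knockout libraries. Slc2a3 had 19.6, 61.7 and 34.3 TPM in wild-type and 48.1, 33.5 and 28.2 TPM in knockout libraries on that measure, which was above Slc2a1 in wild-type replicates 1 and 2.

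**Figure D1:**
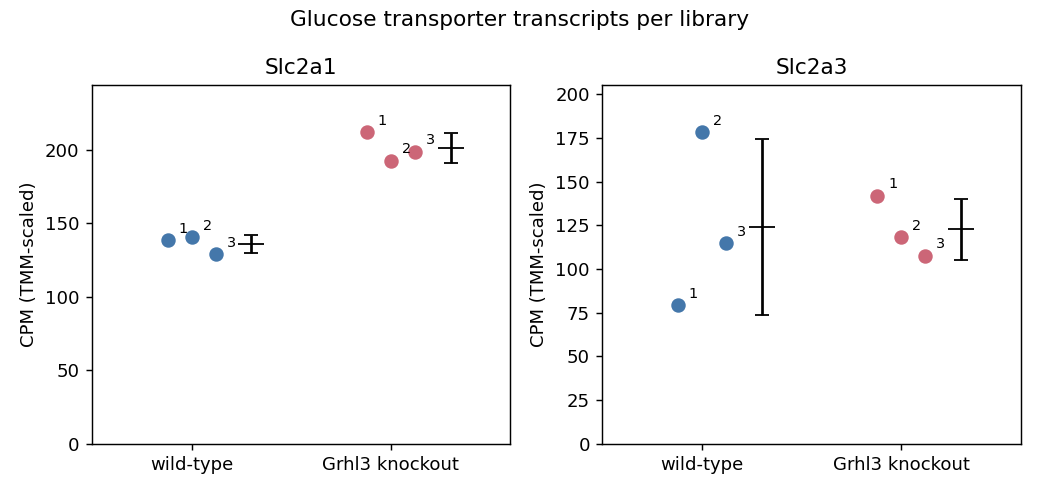
CPM of Slc2a1 (left) and Slc2a3 (right) in each library, with replicate numbers; the bar beside each group is the mean and SD of 3 libraries. For Slc2a1 all knockout points (193 to 212 CPM) lie above all wild-type points (129 to 141 CPM), while for Slc2a3 wild-type replicates 1 and 2 (79.2 and 179 CPM) enclose every other library.

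The enzymes of glycolysis were among the most abundant transcripts of the set. Gapdh, which makes NADH in the pay-off stage, had the highest mean level over the 6 libraries, 3965 TPM. Ldha, Tpi1, Pkm, Eno1, Aldoa, Pgk1 and Gpi1 followed with means from 736 down to 375 TPM. Neighbours in this order lay closer together than their spread: Ldha ranged from 639 to 817 TPM, Tpi1 from 664 to 731 and Pkm from 553 to 850. At the other end, Epas1, Egln3, Car9 and Adm had means of 5.51, 5.07, 2.91 and 1.58 TPM. All of these means count every matched transcript, coding or not. Gapdh-206, annotated with a retained intron, had 532.5 to 1765 TPM. Gpi1-207, annotated as a target of nonsense-mediated decay, had 119 to 193 TPM. The order over coding transcripts alone was not examined. All 35 genes passed the filter on low counts and entered the test.

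**Figure D2:**
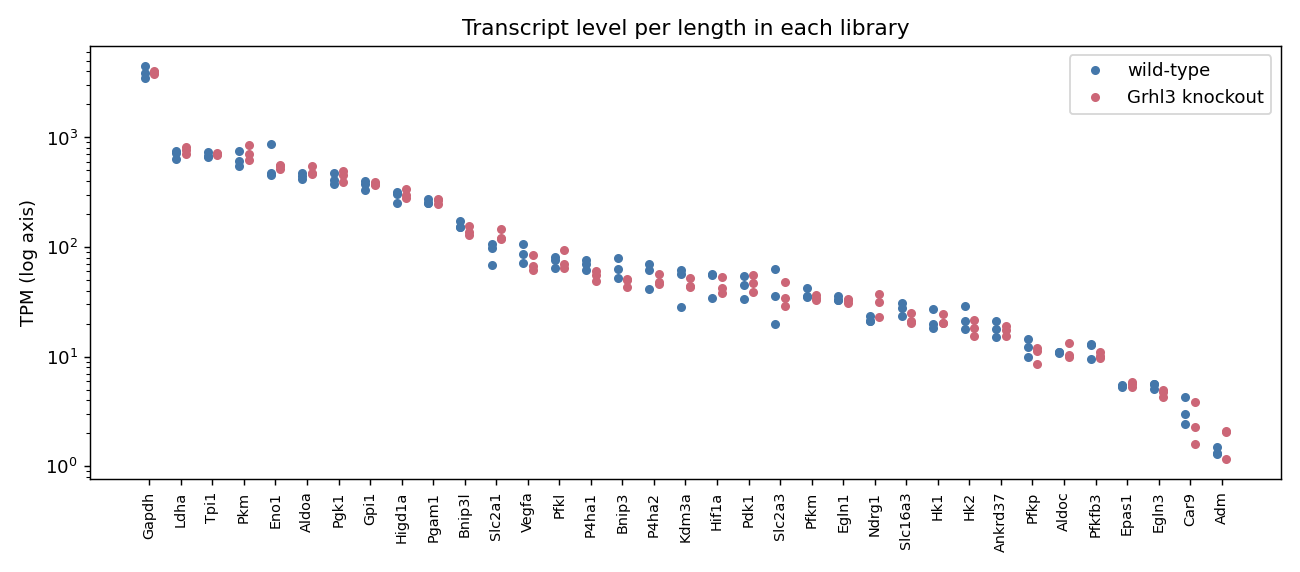
TPM of each gene in each library on a log axis, ordered by the mean of the 6 libraries, with wild-type points on the left and knockout points on the right of each position. Gapdh stands alone at the top (mean 3965 TPM) and Adm lies lowest (mean 1.58 TPM), and for nearly all genes the points of the groups mix.

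Preparatory-stage genes did not pass the test. Of the 10 (Hk1, Hk2, Gpi1, Pfkl, Pfkm, Pfkp, Pfkfb3, Aldoa, Aldoc and Tpi1), 0 were called by edgeR, DESeq2 or limma-voom and 0 had an unadjusted p under 0.05 with edgeR. Their log2 fold changes ran from -0.14 for Pfkfb3, which makes the activator of phosphofructokinase, to 0.23 for Aldoc, the brain-type aldolase. The hexokinases, which trap glucose as its phosphate, stayed within 59.0 to 76.4 CPM (Hk1) and 41.9 to 52.9 CPM (Hk2) over all libraries. Of the phosphofructokinase subunits, the enzyme that commits sugar to glycolysis, Pfkl measured 228, 184 and 172 CPM in wild-type and 233, 219 and 216 CPM in knockout libraries, and Pfkm lay between 78.3 and 94.8 CPM. Pfkp was the only preparatory gene whose groups did not overlap, at 17.1, 16.7 and 17.2 CPM against 20.0, 17.8 and 20.7 CPM, and its log2 fold change was 0.20 (SE 0.11, adjusted p = 0.792, edgeR). Over all tested genes 12.9% had groups that did not overlap in CPM, 6.77% higher and 6.16% lower in the knockout, and of the 35 genes 4 did: Slc2a1 and Pfkp higher, P4ha1 and P4ha2 lower. A count of 4 of 35 is near that background, and on the TPM scale Pfkp and P4ha2 overlapped while Egln3 and Bnip3, both lower in the knockout, did not.

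Pay-off genes (Gapdh, Pgk1, Pgam1, Eno1 and Pkm) had positive log2 fold changes from 0.07 to 0.27, and 0 of 5 were called by edgeR, DESeq2 or limma-voom or had an unadjusted p under 0.05 with edgeR. Gapdh, often used as a reference gene, measured 1442, 1238 and 1107 CPM in wild-type and 1348, 1403 and 1347 CPM in knockout libraries (log2 fold change 0.11, 95% interval -0.20 to 0.43). Eno1, the general enolase, measured 580, 619 and 658 CPM against 703, 889 and 651 CPM, a log2 fold change of 0.27 (adjusted p = 0.791, edgeR). Values of Eno1 are uncertain, since Eno1b and 2 more near-identical copies took 48.8% of the joint counts in wild-type replicate 1 and 0.674% in wild-type replicate 3. With these copies added, the log2 fold change of Eno1 was 0.05 (adjusted p = 0.994, edgeR). In TPM, Eno1 stood at 864 in wild-type replicate 1 and 459 to 560 elsewhere, and 602 of those 864 TPM were assigned to a transcript annotated with a retained intron. Pgk1, an X-linked gene, shared 18.2% of its joint counts with near-identical copies in knockout replicate 1 and 0% in wild-type replicate 1, and its log2 fold change was 0.09 alone and 0.15 with the copies added.

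Pkm encodes pyruvate kinase, the last step of the pathway, and makes PKM1 or PKM2 by using the first or the second of a pair of exons of equal length. The exons are shown because their sequence is what lets reads tell the enzymes apart. They lie at chr9:59675029-59675195 (PKM1) and chr9:59675568-59675734 (PKM2) on the plus strand of mm10, are each 167 bases long, and differ at 64 positions, set in capitals (61.7% identity, GENCODE transcript sequences).
Pkm PKM1 exon: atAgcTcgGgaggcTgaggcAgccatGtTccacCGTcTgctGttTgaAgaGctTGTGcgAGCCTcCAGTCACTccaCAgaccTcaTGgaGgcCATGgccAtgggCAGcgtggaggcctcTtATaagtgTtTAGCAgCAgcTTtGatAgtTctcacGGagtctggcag
Pkm PKM2 exon: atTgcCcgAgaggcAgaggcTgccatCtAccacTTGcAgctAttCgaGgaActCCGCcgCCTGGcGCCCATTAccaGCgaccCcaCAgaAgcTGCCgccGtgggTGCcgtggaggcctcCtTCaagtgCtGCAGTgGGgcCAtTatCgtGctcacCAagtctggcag
The transcript with the PKM1 exon (Pkm-202) had 18.1, 36.2 and 24.1 TPM in wild-type and 36.0, 28.8 and 28.2 TPM in knockout libraries. The transcript with the PKM2 exon (Pkm-201) had 511, 499 and 422 TPM in wild-type and 556, 559 and 500 TPM in knockout libraries. PKM1 made up 5.2% ± 1.68 of the pair in wild-type and 5.44% ± 0.594 in knockout libraries (SD, n = 3, exact two-sided permutation p = 0.9). Within the pair, the PKM2 transcript thus dominated in each of the 6 libraries, and the share did not differ beyond the spread of the replicates. Further coding transcripts lie outside this share and were uneven between libraries: Pkm-209 ranged from 16.7 to 137 TPM and Pkm-204 from 0 to 125 TPM. Whole-gene Pkm measured 1194, 1021 and 841 CPM against 1265, 1207 and 1133 CPM (log2 fold change 0.24, adjusted p = 0.873, edgeR).

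Ldha, which turns pyruvate into lactate, measured 1033, 666 and 739 CPM in wild-type and 937, 905 and 868 CPM in knockout libraries, so the knockout libraries lay inside the wild-type range. Its log2 fold change was 0.15 (95% interval -0.24 to 0.55). Slc16a3, the lactate exporter MCT4, measured 60.2, 39.5 and 52.8 CPM against 38.9, 48.4 and 41.5 CPM (log2 fold change -0.24, adjusted p = 0.878, edgeR). Pdk1, the kinase that keeps pyruvate out of mitochondria, measured 126 to 152 CPM in wild-type and 131 to 152 CPM in knockout libraries. Of these 3 genes 0 were called by edgeR, DESeq2 or limma-voom, and 0 had an unadjusted p under 0.05 with edgeR.

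Wild-type replicate 1 held the highest wild-type value for 12 of the 15 glycolytic enzymes (the preparatory genes without Pfkfb3, the pay-off genes and Ldha), against 39.1% of all tested genes. Summed over these 15 enzymes, the wild-type libraries reached 7420, 5748 and 5619 CPM and the knockout libraries 7018, 7163 and 6720 CPM. Wild-type replicates 2 and 3 were thus lower than every knockout library, and wild-type replicate 1 was higher. For Tpi1, the isomerase that joins the branches after aldolase, the values were 782, 506 and 569 CPM against 682, 677 and 673 CPM. For Aldoa, the aldolase of muscle and most embryonic tissue, they were 531, 340 and 306 CPM against 443, 414 and 441 CPM. With all libraries 13 of the 15 log2 fold changes were positive, with a median of 0.13 against -0.005 over all genes, 0 were called by edgeR, DESeq2 or limma-voom and 0 had an unadjusted p under 0.05 with edgeR. Without wild-type replicate 1 all 15 were positive, with a median of 0.25 against 0.004 over all genes. In edgeR 0 were then called, where 1.18% of all genes were, and 9 had an unadjusted p under 0.05, where 17.4% did. Leaving out the library with the highest wild-type value for 12 of the 15 raises their fold changes by construction. These counts are thus no independent result. In that fit both wild-type libraries showed Y-linked expression and the knockout libraries did not, so genotype and embryo sex cannot be told apart. Without wild-type replicate 3, Hk2, Gpi1, Pfkm, Aldoa and Pgam1 were negative (-0.10, -0.013, -0.13, -0.012 and -0.010). The other enzymes ran from 0.012 (Hk1) to 0.31 (Eno1) there. On the TPM scale the sums of the 15 enzymes overlapped, at 9107, 8074 and 7686 in wild-type and 8854, 8458 and 8026 in knockout libraries. The 7 muscle markers summed to 770 CPM in wild-type replicate 1, to 766 CPM in knockout replicate 3 and to 470 to 492 CPM in the other 4 libraries. Wild-type replicate 1 and knockout replicate 3 had enzyme sums of 7420 and 6720 CPM, and the part of muscle in the enzyme values was not tested.

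**Figure D3:**
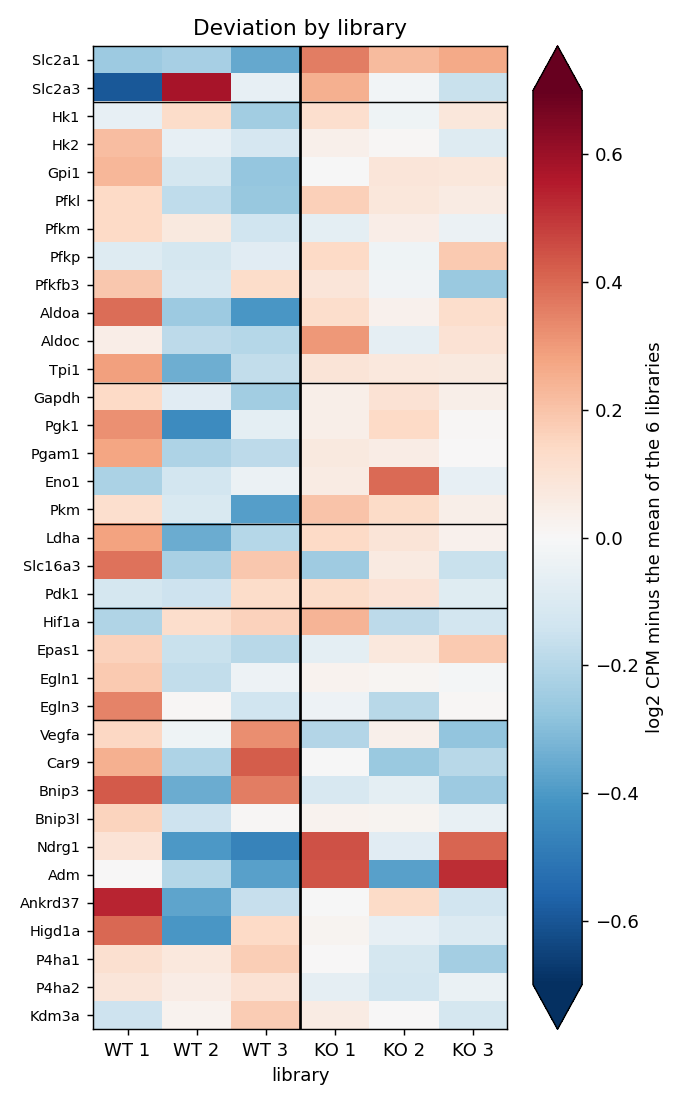
Heat map of log2 CPM of each gene minus its mean over the 6 libraries (colour scale from -0.7 to 0.7), with rows in the order of transport, preparatory, pay-off, lactate and pyruvate, HIF control and hypoxia-responsive genes. Wild-type replicate 1 is red for most glycolytic enzymes, wild-type replicates 2 and 3 are blue and the knockout libraries are near 0, while the Slc2a1 row is blue in the wild-type (129 to 141 CPM) and red in the knockout libraries (193 to 212 CPM).

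Genes that control the response to oxygen showed no difference past the test, with 0 of 4 called by edgeR, DESeq2 or limma-voom and 0 at an unadjusted p under 0.05 with edgeR. Hif1a, the main oxygen-regulated factor, measured 150, 189 and 194 CPM in wild-type and 204, 153 and 159 CPM in knockout libraries (log2 fold change -0.05, 95% interval -0.38 to 0.29). Epas1, the HIF2 alpha factor of endothelium, ranged from 23.0 to 29.5 and from 25.1 to 29.9 CPM. Egln1, the main prolyl hydroxylase, ranged from 91.4 to 117 CPM in wild-type and from 102 to 105 CPM in knockout libraries. Egln3, a hydroxylase that HIF itself induces, ranged from 10.05 to 14.1 and from 9.69 to 11.1 CPM. HIF activity is set mainly at the protein level, which these data do not measure.

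The 11 hypoxia-responsive genes (Vegfa, Car9, Bnip3, Bnip3l, Ndrg1, Adm, Ankrd37, Higd1a, P4ha1, P4ha2 and Kdm3a) had log2 fold changes on both sides of 0, and 0 were called by edgeR, DESeq2 or limma-voom. With edgeR, 1 was higher and 2 were lower at an unadjusted p under 0.05, where 3.82% and 3.42% of all tested genes were. The median of the list was -0.13, with 9 of 11 negative, against -0.005 over all genes. Without wild-type replicate 1 the median was -0.12, and 5 of the 11 were positive. Ndrg1, a stress and differentiation gene also expressed in epithelium, was the higher one, at 53.4, 37.9 and 36.2 CPM in wild-type and 68.2, 47.3 and 66.3 CPM in knockout libraries. Wild-type replicate 1 overlapped the knockout range, and the log2 fold change was 0.51 (SE 0.19, adjusted p = 0.531, edgeR), or 0.71 without wild-type replicate 1 (adjusted p = 0.0782).

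Vegfa, the main growth factor for vessels, measured 121, 107 and 137 CPM in wild-type and 94.6, 112 and 90.3 CPM in knockout libraries. Knockout replicate 2 overlapped the wild-type range, and the log2 fold change was -0.30 (SE 0.12, adjusted p = 0.655, edgeR). The authors' deposited table lists Vegfa at -0.30 with an FDR of 0.716 and Ndrg1 at 0.51 with an FDR of 0.358, and Slc2a1 is the only other of the 35 genes among its 941 entries. The largest unadjusted p-value among these entries was 0.0506 (likelihood ratio test), so the list ends near 0.05. P4ha1, a catalytic subunit of the prolyl hydroxylase that matures collagen, measured 158, 153 and 165 CPM in wild-type and 146, 134 and 124 CPM in knockout libraries, without overlap (log2 fold change -0.24, SE 0.10, adjusted p = 0.627, edgeR). Its paralog P4ha2 measured 68.3, 66.7 and 69.0 CPM against 61.7, 58.9 and 62.5 CPM, also without overlap, and its log2 fold change was -0.16 (SE 0.08, adjusted p = 0.77, edgeR). Of the markers of cartilage, a tissue rich in collagen, all 8 had negative log2 fold changes (median -0.48), 0 were called by edgeR or limma-voom and 1 by DESeq2, and 4 had an unadjusted p under 0.05 with edgeR. They summed to 3567, 5089 and 3643 CPM in wild-type and 3333, 3304 and 2165 CPM in knockout libraries, none was at 0, and their part in the P4ha1, P4ha2 and Vegfa values was not tested.

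Bnip3, which marks mitochondria for removal, had the most negative log2 fold change of the 35 genes, -0.33 (SE 0.19, adjusted p = 0.82, edgeR). It measured 91.4, 53.4 and 87.0 CPM in wild-type and 62.8, 64.9 and 57.0 CPM in knockout libraries, with wild-type replicate 2 below every knockout library. Car9, a carbonic anhydrase of the cell surface that is a common hypoxia marker, was scarce, at 2.85, 2.07 and 3.21 CPM against 2.40, 2.001 and 2.09 CPM (log2 fold change -0.32, adjusted p = 0.894, edgeR). Adm, the vasoactive peptide adrenomedullin, measured 1.45, 1.26 and 1.11 CPM against 1.97, 1.12 and 2.07 CPM (log2 fold change 0.43, adjusted p = 0.879, edgeR). Its interval, -0.23 to 1.09, was the only one of the 35 to reach a 2-fold change. The remaining members had log2 fold changes between -0.13 and -0.01: Higd1a, a mitochondrial inner membrane protein, ran from 57.8 to 101 CPM over all libraries, Ankrd37 from 6.06 to 11.3, Bnip3l, known from the clearing of mitochondria in red cells, from 157 to 193, and the histone demethylase Kdm3a from 105 to 132.

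**Figure D4:**
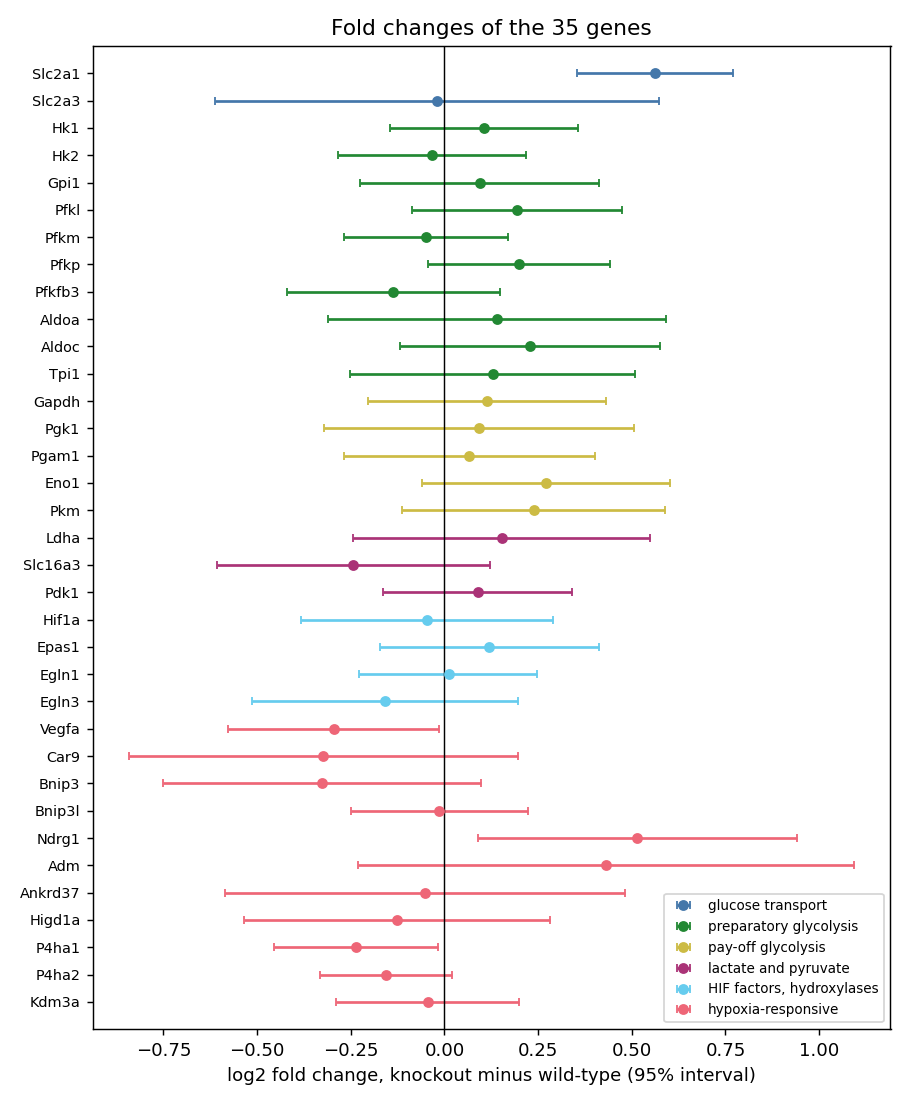
Log2 fold changes, knockout minus wild-type, of the 35 genes with 95% intervals from the edgeR fit, coloured by role. Slc2a1 (0.56), Ndrg1 (0.51), Vegfa (-0.30) and P4ha1 (-0.24) have intervals that leave out 0, and Slc2a1 alone passed after adjustment over all genes.

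Over the whole set, 19 log2 fold changes were positive and 16 negative, with a median of 0.07 against -0.005 over all genes. The balance varied with the fit. Leaving out wild-type replicate 1, 2 or 3 gave 24, 18 and 17 positive, with medians of 0.11, 0.002 and -0.009. Leaving out knockout replicate 1, 2 or 3 gave 19, 21 and 25 positive, with medians of 0.048, 0.052 and 0.068. A fit that also models Y-linked expression gave 12 positive and a median of -0.16. That fit in effect sets wild-type replicate 1 alone against the knockout, so it cannot separate sex from the traits of that library. For 24 of the 35 genes (68.6%) the 95% interval lay within a 1.5-fold change in either direction, against 62.1% of all tested genes. Tested on simulated counts of these 16922 genes, the fit recovered 22.3% of genes changed 1.5-fold and 64.6% of those changed 2-fold.

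Promoter sequences are shown for Slc2a1 as the gene that was called, for Ldha as the window with the most ACGTG matches, and for P4ha1 as a hypoxia-responsive gene that was lower in each knockout library. The letters searched were ACGTG and GCGTG, which are the core of the hypoxia response element, on both strands, with overlapping matches counted, in the 250 bases before each RefSeq start (GRCm38.p6). A CACGTG holds ACGTG on both strands and counts as 2. Each line gives 240 of the 250 bases, 5′ to 3′, up to 10 bases before the start, with every match in capitals, read on the opposite strand as CACGT and CACGC. Ldha has 2 starts in RefSeq, and the window of the first is shown.
Slc2a1, chr4:119108495-119108734, plus strand: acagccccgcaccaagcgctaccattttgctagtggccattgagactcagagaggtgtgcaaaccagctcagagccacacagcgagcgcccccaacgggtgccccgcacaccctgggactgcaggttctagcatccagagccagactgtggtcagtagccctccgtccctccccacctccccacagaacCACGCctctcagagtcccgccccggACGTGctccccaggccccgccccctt
Ldha, chr7:46845554-46845793, plus strand: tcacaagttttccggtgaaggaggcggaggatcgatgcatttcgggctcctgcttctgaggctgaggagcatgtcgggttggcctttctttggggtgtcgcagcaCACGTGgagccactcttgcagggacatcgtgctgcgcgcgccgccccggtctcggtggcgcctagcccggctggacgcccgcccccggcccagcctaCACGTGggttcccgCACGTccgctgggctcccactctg
P4ha1, chr10:59323046-59323285, plus strand: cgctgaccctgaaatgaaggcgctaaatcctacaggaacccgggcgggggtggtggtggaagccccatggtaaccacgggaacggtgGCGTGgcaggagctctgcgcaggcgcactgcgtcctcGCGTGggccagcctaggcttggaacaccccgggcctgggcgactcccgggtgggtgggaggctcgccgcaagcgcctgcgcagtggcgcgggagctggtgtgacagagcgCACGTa
Slc2a1 held 1 ACGTG and 1 GCGTG, the Ldha window 5 ACGTG matches in 3 places, and P4ha1 1 ACGTG and 2 GCGTG. Of the 35 genes, 31 had an entry (not Slc2a3, Epas1, Bnip3l and Ndrg1), and 19 of the 31 (61.3%) held ACGTG before at least 1 start, against 23.4% of 12436 tested genes. For GCGTG the shares were 67.7% and 46.0%. Many of the 35 genes were chosen for a known response to low oxygen, so a higher share is no independent result. The number of starts per gene was not evened out. The letters AACCGGTT, the grainyhead motif, were found before 0 of the 31 genes and before 0.225% of the tested genes. Only these exact letters were searched, and at so low a share a count of 0 of 31 says little about these genes. A match describes letters only, and Ldha, with 5 matches, had a log2 fold change of 0.15 beside 0.56 for Slc2a1 and -0.24 for P4ha1.

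Genes around the same pathways gave few differences. Of 40 further genes of glucose handling 38 were tested, 0 were called by edgeR or limma-voom and 1, Pklr, by DESeq2, with 2 higher and 1 lower at an unadjusted p under 0.05 in edgeR. Pklr, the pyruvate kinase of liver and red cells, measured 0.211, 0.481 and 0.278 CPM in wild-type and 0.873, 4.99 and 0.491 CPM in knockout libraries (log2 fold change 2.67, SE 0.86, adjusted p = 0.435, edgeR). Pklr was highest in knockout replicate 2, where the 9 erythroid markers summed to 8402 CPM. That sum was 8356 CPM in wild-type replicate 2 and 10804 CPM in knockout replicate 3, where Pklr stood at 0.481 and 0.491 CPM. Slc16a1, the lactate transporter MCT1, measured 65.6, 71.3 and 78.4 CPM against 91.6, 85.1 and 83.6 CPM (log2 fold change 0.27, adjusted p = 0.479, edgeR). Eno2, the neuronal enolase, had a log2 fold change of -0.44 (adjusted p = 0.561, edgeR).

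Among 30 further hypoxia genes 0 were called by edgeR, DESeq2 or limma-voom, with 2 higher and 0 lower at an unadjusted p under 0.05 in edgeR. Fam162a, a mitochondrial protein induced by HIF, measured 69.5, 39.0 and 47.0 CPM in wild-type and 77.5, 76.4 and 86.2 CPM in knockout libraries (log2 fold change 0.63, SE 0.19, adjusted p = 0.39, edgeR). Bhlhe40, a repressor induced by HIF, measured 20.2, 20.6 and 19.3 CPM against 32.1, 23.6 and 28.6 CPM (log2 fold change 0.49, SE 0.13, adjusted p = 0.278, edgeR). Both were without overlap between groups, and so was Flt1. These were 3 of the 30 genes, near the 12.9% of all tested genes that did not overlap in CPM. Flt1, the VEGF receptor of endothelium, had a log2 fold change of 0.21 (adjusted p = 0.716, edgeR). The medians of the glucose and hypoxia lists were 0.005 and 0.014. Of 7 pentose phosphate genes and 16 genes of the citric acid cycle, 0 were called by edgeR, DESeq2 or limma-voom and 0 had an unadjusted p under 0.05 with edgeR, at medians of 0.08 and 0.08. Among the pentose phosphate genes the smallest p-values belonged to Pgd, G6pdx and Tkt (log2 fold changes 0.16, 0.12 and 0.09). Of the citric acid cycle genes, Fh1 and Idh3a had log2 fold changes of 0.12 and 0.10.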

How the data were processed

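Polyadenylated RNA of 6 handpad samples was sequenced with a stranded mRNA kit, per the labels' protocols. FastQC, kallisto and genome build mm10 are named, per the submitters' processing notes. The kallisto release was not given in the sources used here, nor was the transcript set. The deposited tables give, per the file headers, the estimated count (not normalized, often fractional) and the TPM of 111462 transcripts per sample. The authors' deposited comparison table gives, per the file headers, an FDR, a p-value, a log2 fold change, a log2 CPM and a score from a likelihood ratio test for 941 genes.

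Of the transcripts, 110203 matched GENCODE M21 by unversioned identifier, and the 1259 unmatched ones, with 0.504% to 0.566% of the counts, were left out. Estimated counts were summed per gene symbol (34945 symbols), which removes the division between isoforms, and rounded. Reads shared with near-identical copies stay divided as kallisto divided them. Copies were sought among the annotated transcripts of the tables with blastn (at least 95% identity over 300 bases). The edgeR package 4.0.16 (R 4.3.3) tested knockout against wild-type (glmQLFit, glmQLFTest, TMM, genotype as the only term, filterByExpr with a minimum count of 10 and total of 15, 16922 genes), adjusted by Benjamini-Hochberg over all genes. Standard errors are the log2 fold change divided by the root of the F statistic, and 95% intervals use its degrees of freedom. The Y-linked sum uses plain library totals. Alternatives were other scalings, other filters, a replicate block, a term for Y-linked expression, each library left out, DESeq2 1.42.0 and limma-voom (limma 3.58.1). Adding near-identical copies was chosen after seeing the data, except for Eno1b. The script was tested on simulated counts in 5 runs with 200 changed genes each, where 9.6% of calls were false. Reads carry no molecular identifiers.

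The members and lists were chosen with earlier results of these data known. Named genes are all 35 members, with every library shown for Slc2a1, Slc2a3, genes at an unadjusted p under 0.05 and the 3 largest fold changes in each direction, and up to 3 genes with the smallest p-values of each further list, of which 1 gene is not reported here. Values of single libraries for other genes were added after they were seen. Results of the other marker lists were as follows: mesenchyme (7 genes, median log2 fold change -0.06), macrophage (5 genes, 0.11), nerve (5 genes, 0.02) and muscle (7 genes, -0.09) had 0 genes called by edgeR, DESeq2 or limma-voom and 0 at an unadjusted p under 0.05 with edgeR.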

Additional observations from a re-analysis of the deposited data

How the results depend on the processing

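The direction of the Slc2a1 difference held in every alternative run, with log2 fold changes from 0.52 to 0.59 when 1 library was left out. Its call was lost with DESeq2 size factors (0.56, adjusted p = 0.0518), plain library totals (0.54, 0.0632), a filter of 1 CPM in 3 libraries (0.56, 0.0518), limma-voom (0.56, 0.0616), the Y-linked term (0.54, 0.0947) and the replicate block (0.56, 0.254). The number of the 35 genes called was 0 in those fits, and ran from 0 to 1 when 1 library was left out. The adjusted p of Slc2a1 ran from 2.43e-06 (DESeq2) to 0.278 (without knockout replicate 1).

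Over all genes, 119 were called with no filter, 299 with DESeq2, 45 with limma-voom and 47 with the replicate block, against 74, and 10 (without wild-type replicate 3) to 204 (without wild-type replicate 1) when 1 library was left out. Same-numbered libraries did not deviate together (correlations -0.244, -0.0915 and -0.163), and no library correlated best with its own number. With 3 libraries per group these values cannot exclude a pairing by number, which the labels do not state. Slc2a3 was 0.047 with the replicate block, 0.63 with the Y-linked term, 0.057 with limma-voom and -0.26 to 0.34 when 1 library was left out.

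Of 472 values of the other 33 genes under alternatives, 436 kept direction and call, 36 changed sign, in 17 genes, and 0 gained a call. The Y-linked term, which in effect sets wild-type replicate 1 against the knockout, gave Gpi1 -0.18, Pfkl -0.036, Aldoa -0.30, Tpi1 -0.21, Gapdh -0.079, Pgk1 -0.26, Pgam1 -0.23, Ldha -0.19, Hif1a 0.20, Epas1 -0.10, Egln1 -0.17 and Kdm3a 0.13. Egln1 was -0.013 with plain library totals, Ankrd37 0.013 with limma-voom and Bnip3l 0.003 with copies added. With 1 library left out the ranges of genes that changed sign were Hk2 -0.10 to 0.075, Gpi1 -0.013 to 0.25, Pfkm -0.13 to 0.012, Aldoa -0.012 to 0.42, Pgk1 -0.074 to 0.30, Pgam1 -0.020 to 0.24, Hif1a -0.19 to 0.028, Egln1 -0.067 to 0.11, Bnip3l -0.085 to 0.065, Ankrd37 -0.23 to 0.26, Higd1a -0.32 to 0.066 and Kdm3a -0.12 to 0.032. The cause of these changes was not tested. Adm and Car9 had group means under 3 CPM.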
